A study of Mus musculus with 4 samples.

Results

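The genes followed here serve creatine and adenylate energy transfer in mouse hearts. They were taken by name from a table of 43346 genes, and all 9 were found: Ckm, Ckmt2, Ckb, Slc6a8, Gatm, Gamt, Ak1, Adssl1 and Ampd3. Hearts of 2 PRMT1-cKO mice, whose cardiomyocytes are deficient in the arginine methyltransferase PRMT1, were set against hearts of 2 WT mice. All were C57BL/6 mice aged 6 weeks, and RNA of the whole heart was sequenced after removal of ribosomal RNA. Neither the Cre line nor the alleles of the WT mice are stated in the labels. Each heart is 1 sample, so there are 2 samples per group. The edgeR p-values rest on a spread estimated from all genes tested as well as from these 2 hearts per group.

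In heart muscle, ATP made in mitochondria is passed to the contractile apparatus partly as phosphocreatine. Mitochondrial creatine kinase charges creatine, and cytosolic creatine kinase returns the phosphate to ADP beside the myofibrils. Adenylate kinase balances ATP, ADP and AMP, and the purine nucleotide cycle turns AMP into IMP and back. Cardiomyocytes make little creatine themselves and take it up from blood.

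The largest changes among the 9 genes were those of Ckm and Ckmt2. These creatine kinases, the cytosolic muscle form and the sarcomeric mitochondrial form, fell 10.3-fold and 3.67-fold in PRMT1-cKO hearts by gene reads. Ak1 and Adssl1 fell less, 1.93-fold and 1.63-fold, and those calls were lost when single libraries were left out. Ckb, Slc6a8, Gatm and Ampd3 did not pass the test, and Gamt had too few reads to be tested. Of 8 genes tested in gene reads 4 were lower and 0 were higher, where 22.7% of all 13869 genes tested were called, 11.2% lower. The median log2 change was -0.46 over the 8 genes and 0.01 over all genes tested.

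Each gene has 3 kinds of read in the deposited table. Exon reads are almost only reads across exon junctions: 29 of 2605955 crossed none, so reads inside a single exon are nearly absent from the counts. Intron reads are those counted to the gene but not as exon reads. For the 13626 genes with no annotated exon, which took between 61.7 and 73.4% of gene reads in a library, all reads stand there. Gene reads are the sum of both. A share of exon reads or a level per kilobase is therefore one of junction reads, and junctions differ in number between genes. Levels are given as CPM, which are counts scaled to library depth with TMM factors, a change as log2 of PRMT1-cKO over WT with its standard error (SE), and a call is an edgeR Benjamini-Hochberg adjusted p under 0.05 over all genes tested.

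The libraries held 18291730 and 18674587 gene reads in PRMT1-cKO, and 25509854 and 21701967 in WT. Exon reads numbered 764806 and 671361 in PRMT1-cKO, and 624897 and 544891 in WT. The mitochondrial ribosomal RNA mt-Rnr2 took 52.8 and 51.2% of gene reads in PRMT1-cKO, and 64.9 and 65.8% in WT. Prmt1 had 33 and 44 gene reads in PRMT1-cKO and 33 and 18 in WT, with 0 exon reads in all 4 libraries, so its counts did not check the labels. Of 15 cardiomyocyte markers 11 fell and 1 rose in gene reads, where 11.2% of all genes tested fell and 11.5% rose. Their summed level ranged from 3005 to 3417 CPM in PRMT1-cKO and from 6480 to 6757 CPM in WT. Myh7 was among the 11 that fell (log2 -1.63), yet its exon reads rose, with 321 over the PRMT1-cKO hearts and 5 over the WT hearts. Of 10 fibroblast markers 8 rose, with a summed level of 703 to 1127 CPM in PRMT1-cKO and 373 to 473 CPM in WT. Of 10 leukocyte markers tested 9 rose, with 61.6 to 85.2 CPM in PRMT1-cKO and 23.7 to 30.3 CPM in WT. Skeletal muscle markers, 4 of 5 tested lower, summed to 6.23 to 9.72 CPM in PRMT1-cKO and 16.8 to 25.1 CPM in WT. The lower ones were Acta1, Casq1, Mybpc2 and Myot. Myh1, Myh2, Myh4, Mylpf and Pvalb were among the list genes with too few reads to be tested. None of the 15 cardiomyocyte markers was at 0 in all libraries. Smooth muscle and pericyte markers summed to 460 to 565 CPM in PRMT1-cKO and 280 to 330 CPM in WT, with 2 of 12 higher and 2 lower. Des, which cardiomyocytes also make, set that sum: without it the list summed to 154 and 145 CPM in PRMT1-cKO and 212 and 245 CPM in WT. Endothelial markers summed to 336 to 352 CPM in PRMT1-cKO and 403 to 409 CPM in WT, with 1 of 12 higher and 5 lower. Red cell markers, with Hba-a1, Hba-a2 and Hbb-bt at 0, summed to 21.3 to 22.8 CPM in PRMT1-cKO and 7.66 to 8.19 CPM in WT, with 2 of 3 tested higher. Nerve markers lay between 21.1 and 21.5 CPM in PRMT1-cKO and between 23.4 and 24.7 CPM in WT, with 2 of 4 tested higher and 1 lower. Adipocyte markers ranged from 9.62 to 15.3 CPM in PRMT1-cKO and from 9.83 to 12.5 CPM in WT, with 1 of 6 tested higher and 1 lower.

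The promoters of the 3 creatine kinase genes are shown because the results turn on these genes. Each run is the 250 bases before the start in RefSeq on GRCm38.p6, read 5′ to 3′ on the gene's strand. Capitals mark matches, on both strands, to the E-box CANNTG, to the TATA box TATAAA, to the MEF2 motif and to the ERR motif AAGGTCA.
Ckm, chr7:19410844-19411093, plus strand: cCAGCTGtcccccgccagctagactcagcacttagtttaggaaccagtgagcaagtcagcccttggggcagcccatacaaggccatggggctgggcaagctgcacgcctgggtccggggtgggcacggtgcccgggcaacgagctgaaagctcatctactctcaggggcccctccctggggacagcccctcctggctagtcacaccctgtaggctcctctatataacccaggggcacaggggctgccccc
Ckmt2, chr13:91876886-91877135, minus strand: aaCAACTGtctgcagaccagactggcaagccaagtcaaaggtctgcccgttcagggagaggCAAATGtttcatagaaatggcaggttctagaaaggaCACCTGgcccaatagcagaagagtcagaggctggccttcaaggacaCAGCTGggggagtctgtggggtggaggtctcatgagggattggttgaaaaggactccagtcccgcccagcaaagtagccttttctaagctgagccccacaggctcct
Ckb, chr12:111672339-111672588, minus strand: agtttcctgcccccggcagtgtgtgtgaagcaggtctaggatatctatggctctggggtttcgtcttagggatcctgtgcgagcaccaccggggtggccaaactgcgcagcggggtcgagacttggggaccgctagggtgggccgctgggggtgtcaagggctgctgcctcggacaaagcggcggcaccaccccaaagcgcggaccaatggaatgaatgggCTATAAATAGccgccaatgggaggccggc
The Ckm promoter held 1 E-box, and the Ckmt2 promoter held 4. The Ckb promoter held no E-box, but 1 TATA box that lies inside a MEF2 match. Among 32544 RefSeq promoters of 250 bases before and 50 after the start, 72.3% held an E-box, 13.6% a TATA box, 4.71% the ERR motif and 3.16% a MEF2 match. RefSeq promoters were matched for 8 of the 9 genes, 13 promoters in all, and not for Slc6a8. A match is a stretch of letters and shows no binding.

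Ckm encodes the muscle creatine kinase, which rebuilds ATP at the myofibrils. The gene (ENSMUSG00000030399) lies on the plus strand at chr7:19411094-19421583 of GRCm38. Its gene reads numbered 568 and 379 in PRMT1-cKO hearts, against 4607 and 4214 in WT hearts. These are 27.9 and 15.9 CPM in PRMT1-cKO and 204 and 246 CPM in WT. Both PRMT1-cKO hearts lay far below both WT hearts, and the groups did not overlap. The log2 change was -3.37 ± 0.30 (SE, n = 2 each; edgeR, Benjamini-Hochberg adjusted p = 1.25e-07). In bulk tissue, fewer cardiomyocytes and less RNA per cardiomyocyte cannot be told apart.

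Exon reads gave the same picture for Ckm. They numbered 557 and 372 in PRMT1-cKO, against 4503 and 4134 in WT, or 753 and 581 CPM in PRMT1-cKO and 7281 and 7698 CPM in WT. The log2 change in exon reads was -3.49 ± 0.14, an 11.2-fold fall (edgeR, Benjamini-Hochberg adjusted p = 4.29e-11). Nearly all reads of the gene were exon reads, 98.1 and 98.2% in PRMT1-cKO and 97.7 and 98.1% in WT. The few intron reads, 11 and 7 in PRMT1-cKO and 104 and 80 in WT, fell by 3.48 ± 0.35 on the log2 scale (edgeR, Benjamini-Hochberg adjusted p = 8.92e-09). An antisense gene, A930016O22Rik, overlaps Ckm and had 2 and 2 exon reads in PRMT1-cKO and 20 and 4 in WT. Whether counting used strand is not stated, and the antisense counts are small beside those of Ckm.

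Ckmt2 encodes the sarcomeric creatine kinase of the mitochondrial intermembrane space, where phosphocreatine is made. The gene (ENSMUSG00000021622) lies on the minus strand at chr13:91853387-91876885. It had 2406 and 2116 gene reads in PRMT1-cKO, against 8324 and 6653 in WT, or 118 and 88.5 CPM in PRMT1-cKO and 369 and 389 CPM in WT. Again both PRMT1-cKO hearts were below both WT hearts. The log2 change was -1.88 ± 0.27 (SE, n = 2 each; edgeR, Benjamini-Hochberg adjusted p = 4.45e-05). Exon reads numbered 2143 and 1815 in PRMT1-cKO and 6925 and 5897 in WT, and fell by 1.95 ± 0.11 on the log2 scale, 3.87-fold (edgeR, Benjamini-Hochberg adjusted p = 1.19e-09). Intron reads, 263 and 301 in PRMT1-cKO and 1399 and 756 in WT, fell by 2.05 ± 0.22 (edgeR, Benjamini-Hochberg adjusted p = 3.35e-08). The antisense gene that overlaps it, 1700119I11Rik, had 0 reads in all 4 libraries.

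Ckb encodes the brain-type cytosolic creatine kinase, which heart also makes at a lower level. The gene (ENSMUSG00000001270) lies on the minus strand at chr12:111669355-111672338. It had 42 and 17 gene reads in PRMT1-cKO and 36 and 27 in WT, or 2.06 and 0.711 CPM in PRMT1-cKO and 1.59 and 1.58 CPM in WT. The PRMT1-cKO hearts lay on either side of the WT hearts, so the groups overlapped. The log2 change was -0.22 ± 0.41 in gene reads (edgeR, Benjamini-Hochberg adjusted p = 0.761) and -0.04 ± 0.42 in exon reads (adjusted p = 0.956 by the same edgeR test). Exon reads numbered 38 and 14 in PRMT1-cKO and 21 and 23 in WT. The value turned on single PRMT1-cKO libraries: in gene reads it was -1.18 without PRMT1-cKO replicate 1 and 0.35 without PRMT1-cKO replicate 2, and neither passed (edgeR, Benjamini-Hochberg adjusted p = 0.0556 and 0.547).

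**Figure D1:**
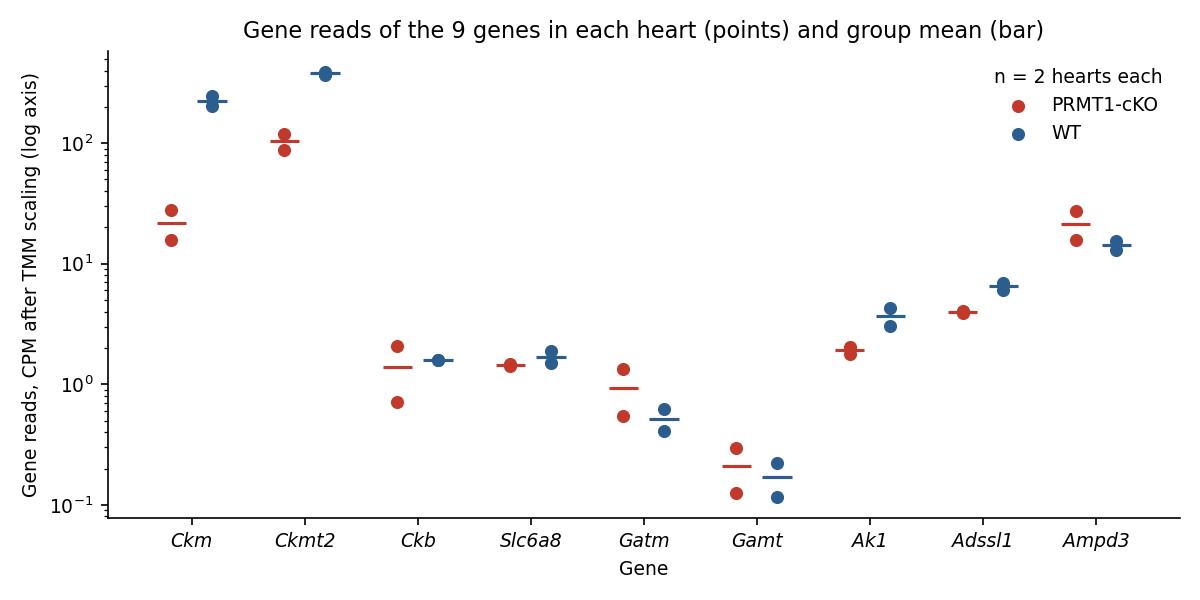
Gene reads of the 9 genes in each heart, in CPM after TMM scaling on a log axis, with PRMT1-cKO left of WT; points are hearts and bars are group means (n = 2 each). Ckm and Ckmt2 show the widest gaps, with Ckm at 27.9 and 15.9 CPM in PRMT1-cKO and 204 and 246 CPM in WT.

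**Figure D2:**
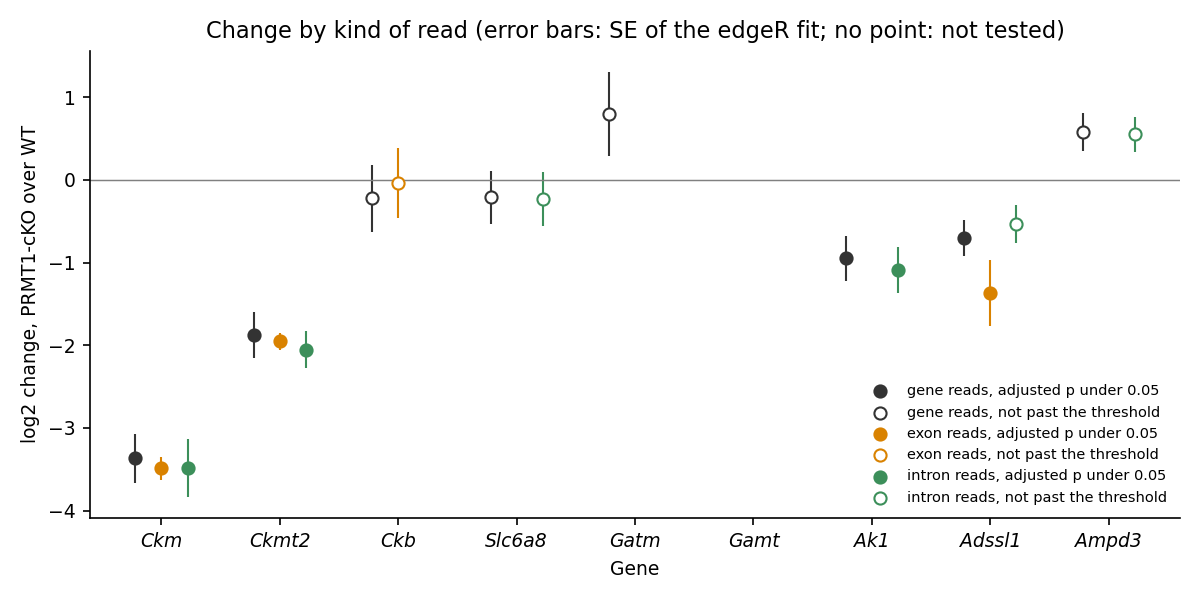
Log2 change of PRMT1-cKO over WT for each gene in gene, exon and intron reads, with SE of the edgeR fit; filled points have an adjusted p under 0.05 and a missing point was not tested. The 3 kinds of read lie close together for Ckm and for Ckmt2.

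The plot of changes by kind of read sets the creatine kinases beside the other genes. In exon reads 4 of the 9 genes could be tested and 3 were lower, Ckm, Ckmt2 and Adssl1, where 36.2% of 4756 genes were called. In intron reads 6 could be tested and 3 were lower, Ckm, Ckmt2 and Ak1, where 21.8% of 13217 genes were called. Whether exon and intron reads of a gene changed unequally was tested directly with edgeR diffSpliceDGE. The exon minus intron difference in log2 change was -0.04 for Ckm, 0.05 for Ckmt2 and -0.88 for Adssl1. None of these 3 passed (edgeR diffSpliceDGE, Simes p with Benjamini-Hochberg adjustment, 0.999, 0.999 and 0.746), where 4.79% of 4255 genes did. The other 6 genes had too few reads of 1 kind for this test.

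Per kilobase of exon, the balance between the creatine kinases shifted away from Ckm. The Ckm to Ckmt2 ratio was 0.273 and 0.215 in PRMT1-cKO hearts, against 0.683 and 0.736 in WT hearts. All values of PRMT1-cKO were below those of WT, by 2.93-fold between geometric means (log2 -1.55). The exact two-sided permutation p was 0.333, the smallest that 2 hearts against 2 can give. Of the reads per kilobase of the 3 genes, Ckm took 21.1 and 17.6% in PRMT1-cKO and 40.5 and 42.3% in WT. Ckmt2 took 77.5 and 81.8% in PRMT1-cKO and 59.3 and 57.5% in WT. Ckmt2 thus had the largest share of these reads in every heart. Since they are junction reads, and the table lists 8 exons for Ckm and 10 for Ckmt2, the order of the RNA levels themselves was not tested.

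Ckb was a small share in both groups, 1.38 and 0.634% in PRMT1-cKO and 0.181 and 0.225% in WT. The Ckm to Ckb ratio per kilobase was 15.3 and 27.8 in PRMT1-cKO and 224 and 188 in WT (log2 -3.31, 9.95-fold; exact permutation p = 0.333). Together the 3 genes took 0.358 and 0.328% of all exon reads in PRMT1-cKO and 1.83 and 1.85% in WT, 5.37-fold less. The deposited RPKM takes the exon reads of a gene, scaled by exon length and total gene reads. By this RPKM, Ckm ranked 112 and 152 in PRMT1-cKO hearts and 7 in both WT hearts. Ckmt2 ranked 19 and 21 in PRMT1-cKO and 5 in both WT hearts. Between 9417 and 10159 genes had a value above 0 in a heart. Genes with no annotated exon have no rank, and genes with few junction reads stand low, such as Mb at a mean RPKM of 0.165 in WT. The ranks are therefore not an order of RNA levels.

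**Figure D3:**
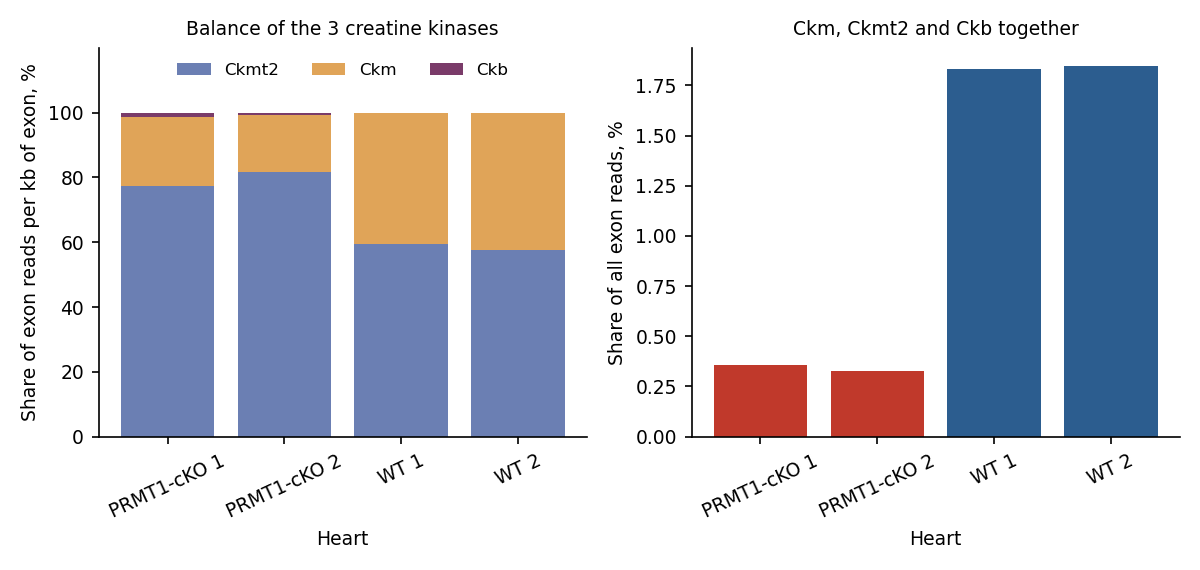
Left, share of the exon reads per kilobase of Ckm, Ckmt2 and Ckb in each heart, in percent; right, the 3 genes together as a percent of all exon reads, with PRMT1-cKO hearts left of WT hearts. The Ckm share was 21.1 and 17.6% in PRMT1-cKO and 40.5 and 42.3% in WT, and the joint share was 0.358 and 0.328% in PRMT1-cKO and 1.83 and 1.85% in WT.

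In exon reads 9 of 13 cardiomyocyte markers tested were lower and 2 higher, Myh7 (log2 5.68) and Mybpc3 (log2 0.75). Over all genes tested in exon reads 18.7% were lower and 17.6% higher. Exon reads of the energy transfer genes were therefore set against the summed exon reads of the 15 markers. Actc1 and Myh6 held between 75.6 and 82.7% of that sum, so it follows mainly these genes. Per 1000 marker reads, Ckm had 16.1 and 13.98 exon reads in PRMT1-cKO and 89.0 and 93.1 in WT, 6.06-fold lower. Ckmt2 had 62.1 and 68.2 in PRMT1-cKO and 137 and 133 in WT, 2.07-fold lower. Both genes thus lay lower relative to this sum, without overlap between groups. Adssl1 had 0.724 and 0.338 in PRMT1-cKO and 0.731 and 0.811 in WT, and Ckb had 1.10 and 0.526 in PRMT1-cKO and 0.415 and 0.518 in WT. The exact two-sided permutation p was 0.333 for each of the 4 genes, the smallest this design gives. Against the other 13 markers, Ckm had 76.7 and 57.3 reads per 1000 in PRMT1-cKO and 502 and 539 in WT, and Ckmt2 had 295 and 279.7 in PRMT1-cKO and 772 and 769 in WT. That sum includes Tnnc1, which was not called, with 4821 exon reads over the PRMT1-cKO hearts and 4351 over the WT hearts. It also includes Mybpc3, which was higher, with 3623 and 1795. Myl3, in the same sum, fell by 1.78 on the log2 scale in exon reads. The size of both falls thus depends on which markers lead the sum. This scaling was chosen after the data were seen, and the part of cell composition in the changes was not tested.

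**Figure D4:**
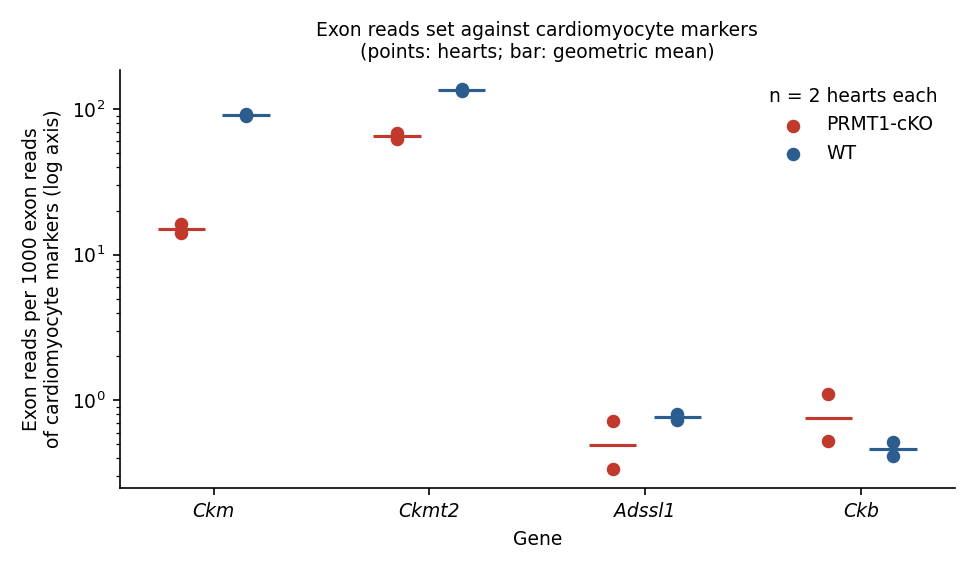
Exon reads of 4 genes per 1000 exon reads of 15 cardiomyocyte markers, on a log axis; points are hearts, bars are geometric means (n = 2 each), and PRMT1-cKO is left of WT. Ckm and Ckmt2 remain apart, with Ckm at 16.1 and 13.98 in PRMT1-cKO and 89.0 and 93.1 in WT.

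Slc6a8, Gatm and Gamt, genes of creatine supply, had few reads in every heart. Slc6a8, the creatine transporter (ENSMUSG00000019558, chrX:73673150-73682502), had 30 and 34 gene reads in PRMT1-cKO and 34 and 32 in WT. That is 1.47 and 1.42 CPM in PRMT1-cKO and 1.51 and 1.87 CPM in WT. Its log2 change was -0.21 ± 0.33 (edgeR, Benjamini-Hochberg adjusted p = 0.711). Only 1 of its reads was an exon read, in PRMT1-cKO replicate 2, so these reads give no level of its spliced RNA; a count of 0 allows up to 3 reads, between 3.92 and 5.51 CPM of exon reads.

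Gatm and Gamt encode the enzymes that make guanidinoacetate and then creatine, steps best known in kidney and liver. Gatm (ENSMUSG00000027199, chr2:122594467-122611303) had 27 and 13 gene reads in PRMT1-cKO and 14 and 7 in WT. Its levels, 1.33 and 0.544 CPM in PRMT1-cKO and 0.620 and 0.409 CPM in WT, overlapped between groups. On the log2 scale the difference was 0.80 ± 0.51 (edgeR, Benjamini-Hochberg adjusted p = 0.296; 0.0309 with library totals in place of TMM). Without PRMT1-cKO replicate 1 it was 0.02 and without PRMT1-cKO replicate 2 it was 1.30 (edgeR, Benjamini-Hochberg adjusted p = 0.988 and 0.0633), so 1 library decides it. Gamt (ENSMUSG00000020150, chr10:80258151-80261012) had 6 and 3 gene reads in PRMT1-cKO and 5 and 2 in WT, with 0 exon reads, and was not tested. Slc16a12, a monocarboxylate transporter family member that carries creatine, had 99 and 98 gene reads in PRMT1-cKO and 194 and 127 in WT, or 4.86 and 4.10 CPM in PRMT1-cKO and 8.59 and 7.43 CPM in WT. Its exon reads numbered 24 over the PRMT1-cKO hearts and 17 over the WT hearts. They gave a log2 change of 0.24 ± 0.52, which did not pass (edgeR, Benjamini-Hochberg adjusted p = 0.757). Gene reads of Slc16a12, mostly intron reads, fell by 0.84 ± 0.21 on the log2 scale (edgeR, Benjamini-Hochberg adjusted p = 0.00654). With WT replicate 1 left out, the edgeR adjusted p was 0.112.

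Ak1 encodes the main cytosolic adenylate kinase of muscle. The gene (ENSMUSG00000026817, chr2:32621758-32635058, plus strand) had 36 and 49 gene reads in PRMT1-cKO and 97 and 52 in WT, or 1.77 and 2.05 CPM in PRMT1-cKO and 4.30 and 3.04 CPM in WT. On this TMM scale both PRMT1-cKO hearts were below both WT hearts, but the nearest pair had close raw counts, 49 and 52. On the log2 scale the change was -0.95 ± 0.28 (edgeR, Benjamini-Hochberg adjusted p = 0.0168). Without WT replicate 1 the edgeR adjusted p was 0.299, with library totals in place of TMM it was 0.235, and DESeq2 gave an adjusted p of 0.0898. The change rested on intron reads, 31 and 46 in PRMT1-cKO and 97 and 52 in WT, with a log2 change of -1.09 ± 0.28 (edgeR, Benjamini-Hochberg adjusted p = 0.00384; 0.141 without WT replicate 1). Exon reads were too few to test and give no direction for spliced RNA. They numbered 5 and 3 in PRMT1-cKO and 0 and 0 in WT.

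Adssl1 encodes the muscle adenylosuccinate synthase, which turns IMP toward AMP in the purine nucleotide cycle. The gene (ENSMUSG00000011148, chr12:112620045-112641354, plus strand) had 82 and 94 gene reads in PRMT1-cKO and 136 and 119 in WT, or 4.02 and 3.93 CPM in PRMT1-cKO and 6.02 and 6.96 CPM in WT. The groups did not overlap. In gene reads the log2 change was -0.70 ± 0.22 (edgeR, Benjamini-Hochberg adjusted p = 0.0246). The edgeR adjusted p became 0.0715 without WT replicate 1, 0.207 without WT replicate 2 and 0.587 with library totals in place of TMM, and DESeq2 gave 0.114. Exon reads numbered 25 and 9 in PRMT1-cKO and 37 and 36 in WT, a log2 change of -1.37 ± 0.40 (edgeR, Benjamini-Hochberg adjusted p = 0.0136). That call was lost without PRMT1-cKO replicate 2, with an edgeR adjusted p of 0.0907, and in DESeq2, with an adjusted p of 0.0668. Intron reads, 57 and 85 in PRMT1-cKO and 99 and 83 in WT, did not pass (log2 -0.53 ± 0.23; edgeR, Benjamini-Hochberg adjusted p = 0.108).

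Adss, the form of the same enzyme found in most tissues, moved the other way. It had 59 and 43 exon reads in PRMT1-cKO and 19 and 10 in WT, and rose by 1.55 ± 0.36 on the log2 scale (edgeR, Benjamini-Hochberg adjusted p = 0.00285). In gene reads it had 216 and 256 in PRMT1-cKO and 166 and 117 in WT, log2 0.58 ± 0.20 (edgeR, Benjamini-Hochberg adjusted p = 0.0386, up to 0.339 when 1 WT library was left out). The Adssl1 to Adss ratio of exon reads was 0.424 and 0.209 in PRMT1-cKO, against 1.95 and 3.60 in WT. Adssl1 had the fewer exon reads of the pair in both PRMT1-cKO hearts and the more in both WT hearts, without adjustment for length. The ratio was 8.89-fold lower between geometric means (log2 -3.15; exact permutation p = 0.333, the smallest possible). In gene reads the ratio was 0.380 and 0.367 in PRMT1-cKO and 0.819 and 1.02 in WT, 2.44-fold lower, so there Adssl1 had the fewer reads in WT replicate 1 too.

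Ampd3 encodes an AMP deaminase, which turns AMP into IMP. The gene (ENSMUSG00000005686, chr7:110768206-110812405, plus strand) had 319 and 649 gene reads in PRMT1-cKO and 351 and 224 in WT. In CPM these were 15.7 and 27.1 in PRMT1-cKO and 15.5 and 13.1 in WT. PRMT1-cKO replicate 2 stood above the other 3 hearts, and PRMT1-cKO replicate 1 lay beside WT replicate 1. The log2 change was 0.58 ± 0.23 and did not pass (edgeR, Benjamini-Hochberg adjusted p = 0.0845). Without PRMT1-cKO replicate 1 the log2 change was 0.89 (edgeR, Benjamini-Hochberg adjusted p = 0.000193). Without PRMT1-cKO replicate 2 it was 0.10 (edgeR, Benjamini-Hochberg adjusted p = 0.764). A single library thus decides this value, and with library totals in place of TMM it also passed (edgeR adjusted p = 0.00290). Exon reads were few, 9 and 13 in PRMT1-cKO and 3 and 2 in WT, and were not tested. Of 3 annotated genes that overlap it, Rnf141 lies on the opposite strand and shares 11974 bases with Ampd3. It had 216 and 264 gene reads in PRMT1-cKO and 203 and 136 in WT (log2 0.35 ± 0.20; edgeR, Benjamini-Hochberg adjusted p = 0.229), and without stated strand use, reads of the shared stretch cannot be told apart.

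In the authors' deposited table, the corrected p-value of their own test was 3.15e-32 for Ckm, with a signed fold change of -10.3. For Ckmt2 the authors' deposited table lists a corrected p-value of 0 and a fold of -3.68. It gives 0.0257 and a fold of -1.94 for Ak1, 0.0603 and -1.63 for Adssl1, and 0.368 and 1.49 for Ampd3, all from the authors' deposited table. Adssl1 therefore lay past the threshold in the edgeR test and short of it in the authors' deposited table.

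Profiles most like the creatine kinases were sought among 2970 genes with reads enough, by the distance between log2 CPM over the 4 libraries, each centred on its mean. For Ckm these were Cox8b, a muscle form of a cytochrome c oxidase subunit, Yipf7, and Myl7, the atrial regulatory light chain, at distances of 0.24, 0.32 and 0.56. Cox8b had 5.01 and 3.47 CPM of gene reads in PRMT1-cKO and 39.6 and 45.0 CPM in WT. Myl7 had 12.0 and 10.3 CPM in PRMT1-cKO and 97.2 and 95.3 CPM in WT. For Ckmt2 they were Slc25a33, a mitochondrial pyrimidine nucleotide carrier, Ndufa13, a complex I subunit, and Mrpl42, a mitochondrial ribosomal protein, at 0.06, 0.10 and 0.13. Mrpl42 had 13.5 and 11.4 CPM in PRMT1-cKO and 43.4 and 45.7 CPM in WT. For Ckb, among 2971 genes, they were Calr, the calcium-binding chaperone calreticulin, Gstp1 and Ccdc25, at 0.29, 0.34 and 0.45. With only 4 libraries in a single contrast, such likeness is a description.

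The wider pathway was read from 7 lists with 69 genes, 60 of them beyond the 9 above. In gene reads 22 of the 62 tested were called, beside 22.7% of all genes. These counts include 8 of the 9 genes above, with 4 of the calls. In exon reads 17 of the 30 tested were called, beside 36.2% of all genes, and 4 of the 9 genes are included with 3 of the calls. The call was kept whichever library was left out for 9 genes in gene reads and 11 in exon reads. Ckm and Ckmt2 were among these in both kinds of read. How many of all called genes kept their call in this way was not counted. The mitochondrial exchange list, which carries adenine nucleotides and phosphate across the mitochondrial membranes, had 11 genes tested in gene reads, of which 6 were lower and 0 higher (median log2 -0.85). In exon reads 4 of 7 were lower and 1 higher. The higher one was Slc25a24, an ATP-Mg/phosphate carrier, with 42 and 29 exon reads in PRMT1-cKO and 17 and 12 in WT (log2 1.03 ± 0.38; edgeR, Benjamini-Hochberg adjusted p = 0.0431), a call lost in 3 of 4 fits with 1 library left out. Slc25a4, the heart and muscle ADP/ATP carrier, had 659 and 704 exon reads in PRMT1-cKO and 1773 and 1834 in WT. It fell by 1.66 ± 0.14 on the log2 scale (edgeR, Benjamini-Hochberg adjusted p = 1.41e-07). Slc25a3, the mitochondrial phosphate carrier, had 194 and 141 exon reads in PRMT1-cKO and 529 and 497 in WT, and fell by 1.88 ± 0.15 (edgeR, Benjamini-Hochberg adjusted p = 9.93e-08). Vdac3, a channel of the outer membrane, had 90 and 95 in PRMT1-cKO and 214 and 179 in WT, and fell by 1.34 ± 0.18 (edgeR, Benjamini-Hochberg adjusted p = 2.48e-05). Slc25a31, a carrier best known from testis, had only 4 and 8 gene reads in PRMT1-cKO and 20 and 12 in WT. Its edgeR adjusted p of 0.0406 was lost in 3 of 4 fits with 1 library left out, up to 0.443.

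**Figure D5:**
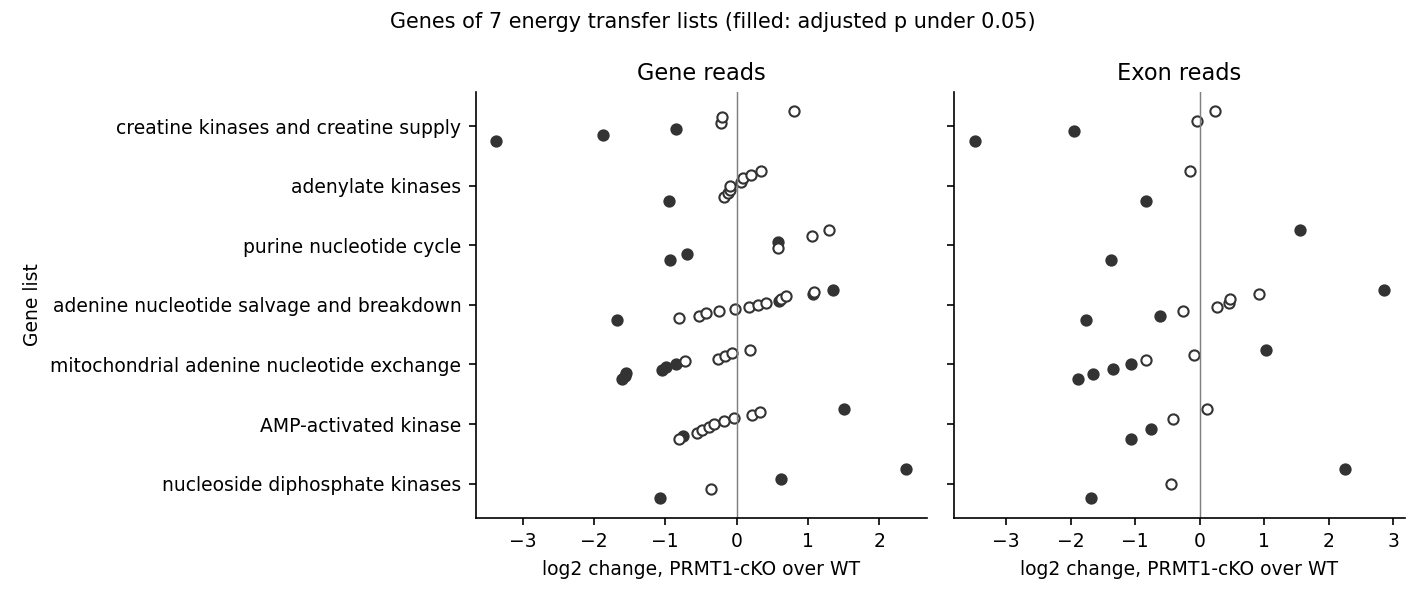
Log2 change of PRMT1-cKO over WT for each tested gene of 7 energy transfer lists, in gene reads (left) and exon reads (right); filled points have an edgeR adjusted p under 0.05. The mitochondrial exchange list holds 6 lower calls and 0 higher calls among 11 genes in gene reads, and the salvage and breakdown list holds 3 higher calls and 1 lower call among 15. Over all genes tested in gene reads 22.7% were called.

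Of 15 salvage and breakdown genes tested in gene reads 3 rose and 1 fell (median log2 0.30), a share near the 22.7% called over all genes. In exon reads 1 rose and 2 fell of 8, where 36.2% of all genes were called. Nt5e, the surface enzyme CD73 that makes adenosine outside cells, had 154 and 118 exon reads in PRMT1-cKO and 16 and 15 in WT. It rose by 2.86 ± 0.26 on the log2 scale in exon reads (edgeR, Benjamini-Hochberg adjusted p = 4.23e-07). Fibroblast and leukocyte marker sums were also higher in PRMT1-cKO, and their part in this value was not tested. Entpd1, the surface enzyme CD39, had 1035 and 1569 gene reads in PRMT1-cKO and 669 and 445 in WT, and rose by 1.06 ± 0.22 (edgeR, Benjamini-Hochberg adjusted p = 0.00121; 0.0884 without WT replicate 2). Nt5c1a, a cytosolic nucleotidase of muscle that acts on AMP, had 20 and 17 exon reads in PRMT1-cKO and 60 and 46 in WT. It fell by 1.76 ± 0.31 in exon reads (edgeR, Benjamini-Hochberg adjusted p = 3.61e-04). Adk, adenosine kinase, had 611 and 675 CPM of exon reads in PRMT1-cKO and 952 and 1011 CPM in WT, and fell by 0.61 ± 0.13 (edgeR, Benjamini-Hochberg adjusted p = 0.00183). In gene reads its log2 change of -0.42 ± 0.29 did not pass (edgeR, Benjamini-Hochberg adjusted p = 0.328).

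Among 9 adenylate kinases tested in gene reads only Ak1 was called, where 22.7% of all genes were. In exon reads, where 36.2% of all genes were called, 1 of 2 adenylate kinases was. That was Ak3, the mitochondrial matrix form, with 126 and 158 CPM of exon reads in PRMT1-cKO and 244 and 257 CPM in WT. It fell by 0.83 ± 0.19 on the log2 scale (edgeR, Benjamini-Hochberg adjusted p = 0.00285). In the purine nucleotide cycle 2 of 6 genes fell and 1 rose in gene reads (median log2 0.58), where 11.2% of all genes fell and 11.5% rose. Beside Adssl1 and Adss, Adsl, which completes AMP formation, had 50 and 43 gene reads in PRMT1-cKO and 99 and 63 in WT, and fell by 0.94 ± 0.27 (edgeR, Benjamini-Hochberg adjusted p = 0.0144). That call was lost without PRMT1-cKO replicate 2 or without WT replicate 1, with an edgeR adjusted p of up to 0.147.

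Of 11 AMP-activated kinase genes tested in gene reads 1 rose and 1 fell, no larger a share than the 22.7% called over all genes. In exon reads 2 of 4 fell, where 36.2% of all genes were called, 18.7% lower. Prkab2, a regulatory beta subunit, had 269 and 335 gene reads in PRMT1-cKO and 107 and 83 in WT, and rose by 1.504 ± 0.20 on the log2 scale (edgeR, Benjamini-Hochberg adjusted p = 1.99e-05). Nearly all of these were intron reads: its exon reads numbered 1 and 4 in PRMT1-cKO and 0 and 0 in WT. Prkag1, a gamma subunit that binds AMP, had 114 and 99 exon reads in PRMT1-cKO and 216 and 157 in WT, and fell by 1.06 ± 0.18 (edgeR, Benjamini-Hochberg adjusted p = 2.20e-04). Cab39l, a partner of the upstream kinase LKB1, fell by 0.74 ± 0.22 in exon reads (edgeR, Benjamini-Hochberg adjusted p = 0.0136; 0.125 without WT replicate 1), with 67 and 62 in PRMT1-cKO and 105 and 77 in WT.

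Nucleoside diphosphate kinases pass phosphate between nucleotides, and 4 of 7 could be tested in gene reads, with 2 higher and 1 lower. Over all genes tested in gene reads 22.7% were called. Nme1 had 31 and 16 exon reads in PRMT1-cKO and 3 and 5 in WT (log2 2.25 ± 0.55; edgeR, Benjamini-Hochberg adjusted p = 0.00453, and 0.120 without PRMT1-cKO replicate 1). Its close paralog Nme2 could share reads with it, so this value is uncertain. Nme6 had 11 and 10 exon reads in PRMT1-cKO and 35 and 22 in WT, and fell by 1.68 ± 0.41 (edgeR, Benjamini-Hochberg adjusted p = 0.00476; 0.0645 without WT replicate 1). Nme7 had 126 and 197 gene reads in PRMT1-cKO and 111 and 76 in WT (log2 0.62 ± 0.22; edgeR, Benjamini-Hochberg adjusted p = 0.0488), a call lost in 3 of 4 fits with 1 library left out.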

How the data were processed

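Hearts of 2 PRMT1-cKO and 2 WT mice were sequenced with the SOLiD total RNA-Seq kit after RiboMinus treatment, per the labels' protocols. The submitters' processing notes name GRCm38; the aligner, the counting program and strand use were not stated. The deposited counts of gene reads equal exon reads plus intron reads for all 43346 genes, and 29 of 2605955 exon reads crossed no junction. The deposited RPKM values were recomputed as exon reads scaled by exon length and total gene reads, and were used for ranks only. The authors' p-value, corrected p-value and signed fold change score are those of an EDGE test, per the file headers, which name tagwise dispersions. Genes without annotated exons took between 61.7 and 73.4% of gene reads.

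The quasi-likelihood test of edgeR 4.0.16 (R 4.3.3) was run on the counts after TMM scaling, for genes kept by filterByExpr (minimum count 10, minimum total 15). Genotype was the single covariate, tests were two-sided, and calls had a Benjamini-Hochberg adjusted p under 0.05 over all genes tested. The SE is the log2 change divided by the root of F. Exon against intron reads used diffSpliceDGE with separate library scaling for each kind. Scripts were tested on simulated data. Ratios were tested by exact permutation in scipy 1.17.1. A count of 0 was read as up to 3 reads; such floors cover counting error only, and PCR duplicates may remain. Alternatives were DESeq2 1.42.0 and those named in the closing section.

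Named genes are the 9 genes, at most 4 called genes per pathway list by size of change, and 3 nearest profiles for each creatine kinase among genes of at least 5 CPM. Slc25a24 was named in addition, as the 1 higher call of its list in exon reads. The 9 genes and all lists were chosen with earlier results of these data known. The library numbers did not pair the samples.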

Additional observations from a re-analysis of the deposited data

How the results depend on the processing

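Ckm and Ckmt2 stayed lower and past the threshold in gene, exon and intron reads under every alternative run. In gene reads their log2 changes with 1 library left out ranged from -3.86 to -3.04 and from -2.13 to -1.70. With library totals in place of TMM, the median log2 change of all genes moved to 0.53 in gene reads and 0.54 in intron reads. Calls in gene reads were then 5243, of which 87.3% were higher, against 3154 with 50.8% higher. On that scale Ckb was at 0.26, Slc6a8 at 0.30 in gene reads and 0.30 in intron reads, and Adssl1 at 0.015 in intron reads, which are turned directions without a call. Gatm passed there (log2 1.28; edgeR adjusted p = 0.0309), as did Ampd3 (1.11; edgeR adjusted p = 0.00290), while Ak1 (edgeR adjusted p = 0.235) and Adssl1 (0.587) did not.

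In gene reads DESeq2 called 2 of the 9 genes, 13 pathway genes, and 2201 of all 13869 genes tested. It called 1096 genes in exon reads and 1783 in intron reads. Ak1 (DESeq2 adjusted p = 0.0898) and Adssl1 (0.114 in gene reads, 0.0668 in exon reads) were lost. With 1 library left out, between 2 and 5 of the 9 genes, 10 and 27 pathway genes, and 1815 and 3664 genes were called in gene reads. In intron reads 1632 to 3036 genes were called, and 66 to 252 differed between exon and intron reads. The lone library of a group was there assumed to vary like the others. Directions without a call turned for Ckb, which ranged from -1.18 to 0.35 in gene reads and from -0.79 to 0.45 in exon reads (0.10 without WT replicate 2). The exon minus intron difference turned for Ckm (-0.33 to 0.31, and 0.12 with 1 library size for both kinds of read) and Ckmt2 (-0.15 to 0.23, with -0.0042 without PRMT1-cKO replicate 2). Per cardiomyocyte marker reads, the log2 change was -2.97 for Ckm and -1.42 for Ckmt2 without Actc1 and Myh6, against -2.60 and -1.05 with all markers. The cause of these shifts was not tested.

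Same-numbered libraries deviated together with correlations of -0.124 in gene, -0.0092 in exon and -0.093 in intron reads, so the numbers gave no pairing. With a replicate block 2806 genes and 4 of the 9 were called in gene reads, 1583 and 3 in exon reads, and 2561 and 3 in intron reads. It called 20 pathway genes in gene reads and 17 in exon reads, and 212 genes between exon and intron reads. With the numbers crossed, an alternative chosen after seeing the data, the block called 4329 genes, 5 of the 9 and 30 pathway genes. The low counts of Gatm, Gamt, Slc6a8 and Ckb limit what could be detected for them.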
